A study of Mus musculus with 29 samples.

Results

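Promoter sites are the places where a transcription factor was found on chromatin close to the start of a protein-coding gene, and here they were followed for Atoh1, Pou4f3 and Gfi1 over 9 lists of binding sites. Windows of 300 bp around the summits of all 9 lists were joined where they shared at least 1 bp, which gave 78408 sites. A site was called a promoter site when its midpoint lay within 1 kb of a transcription start of a protein-coding gene in the mm9 mouse genome. By this rule 15185 of the 78408 sites (19.4%) were promoter sites, and the other 63223 lay farther away.

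The study placed Atoh1, Pou4f3 and Gfi1 behind a doxycycline-inducible promoter in mouse embryonic stem cells of the A2loxCre line and asked how the factors direct each other during induced hair cell differentiation. The single-factor lines iAtoh1 and iPou4f3 carried 1 of the factors, iG+A carried Gfi1 and Atoh1, iG+P carried Gfi1 and Pou4f3, iP+A carried Pou4f3 and Atoh1, and iGPA carried Gfi1, Pou4f3 and Atoh1. Every cassette also held the fluorescent reporter Venus, with the proteins joined by self-cleaving peptides, and all cells were collected as embryoid bodies at day 6 of culture after 48 h in 2 µg/ml doxycycline. There were 17 ChIP-seq libraries beside 12 input libraries, and the antibodies were against FLAG for tagged Atoh1, against MYC for tagged Pou4f3 and against the Gfi1 protein. Each Atoh1 and Pou4f3 list was called on 2 merged libraries of 1 line, and the Gfi1 list on 1 library of iGPA. The design text gives different clones of a line as its replicates. Factor and antibody cannot be told apart, and no list from cells without doxycycline or without the tag was used here. In whole embryoid bodies, binding in more cells and stronger binding in each cell cannot be told apart.

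Atoh1 is a basic helix-loop-helix factor that binds E-boxes as a dimer with E proteins and is needed for hair cells of the inner ear and for several kinds of neuron. Pou4f3 is a POU homeodomain factor that binds AT-rich sequence and keeps hair cells alive, and Gfi1 is a zinc finger repressor that binds an AATC core. Many vertebrate promoters lie in CpG islands, stretches rich in G and C with frequent CpG dinucleotides, which are often open in many cell types, while tissue-restricted genes more often start in CpG-poor sequence.

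The sequences below stand for the classes of promoter site that the results turn on: sites in the 4 Atoh1 lists alone, in the 4 Pou4f3 lists alone, in these 8 lists without Gfi1, in all 9 lists, and in the Gfi1 list alone. Each line gives the plus strand of mm9, 5′ to 3′, from 60 bp before to 60 bp after the summit of the list with the strongest peak. Capitals mark CAGNTG E-boxes, the POU pattern ATAATTAAT with up to 1 mismatch, and the Gfi1 patterns AATCACTGC and AATCACAGC, searched on both strands.
Dll3 (Atoh1 lists) chr7:29087281-29087401: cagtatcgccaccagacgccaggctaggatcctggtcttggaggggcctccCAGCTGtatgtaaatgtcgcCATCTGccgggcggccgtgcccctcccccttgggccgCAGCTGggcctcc
Coro1b (Pou4f3 lists) chr19:4148056-4148176: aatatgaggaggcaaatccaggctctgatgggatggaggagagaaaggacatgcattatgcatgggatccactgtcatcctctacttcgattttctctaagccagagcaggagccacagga
Neurog1 (Pou4f3 lists) chr13:56353616-56353736: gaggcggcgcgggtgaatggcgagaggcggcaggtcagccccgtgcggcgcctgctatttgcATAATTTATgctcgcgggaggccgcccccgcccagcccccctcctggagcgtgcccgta
Zmym4 (Atoh1 and Pou4f3 lists) chr4:126645520-126645640: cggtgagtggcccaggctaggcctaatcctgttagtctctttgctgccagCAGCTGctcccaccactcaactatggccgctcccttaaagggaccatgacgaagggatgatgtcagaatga
Mll1 (9 lists) chr9:44689470-44689590: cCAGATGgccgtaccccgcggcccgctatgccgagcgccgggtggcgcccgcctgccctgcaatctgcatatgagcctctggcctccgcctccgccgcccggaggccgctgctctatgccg
Alg14 (Gfi1 list) chr3:120994930-120995050: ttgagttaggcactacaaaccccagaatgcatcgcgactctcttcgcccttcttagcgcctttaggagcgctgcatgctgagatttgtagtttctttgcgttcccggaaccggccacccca
The Dll3 window held 3 E-boxes, while the Neurog1 window held a POU pattern in CpG-rich sequence. Dll3 encodes a Notch ligand and Neurog1 a proneural factor. The Coro1b and Alg14 windows held none of these patterns, although both were among the most enriched promoter sites of their class. Other forms of the POU and Gfi1 motifs were not searched, so a window without a match may still hold one.

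The share of promoter sites differed between lists of the same factor as much as between factors. Among the Atoh1 lists it was 18.3% in iAtoh1 (2752 of 15025 sites), 24.4% in iG+A (4839 of 19828), 22.7% in iP+A (4191 of 18445) and 24.7% in iGPA (6305 of 25541). Among the Pou4f3 lists it was 27.5% in iPou4f3 (6116 of 22209), 15.8% in iG+P (5007 of 31784), 18.8% in iP+A (3164 of 16791) and 11.9% in iGPA (2221 of 18666). The Gfi1 list had the highest share of the 9, with 983 promoter sites of 2991 (32.9%, exact binomial 95% interval 31.2 to 34.6%). The highest and the lowest share among the Atoh1 and Pou4f3 lists were both Pou4f3 lists, so the groups overlapped. The means were 22.5% ± 2.94 (SD, n = 4 lists) for Atoh1 and 18.5% ± 6.66 for Pou4f3, and the difference of 4.02 percentage points was within the spread between lines (exact permutation test over lists, two-sided, p = 0.343, adjusted p = 0.419). Binomial intervals cover counting error alone, and the lists hold no value per replicate.

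**Figure D1:**
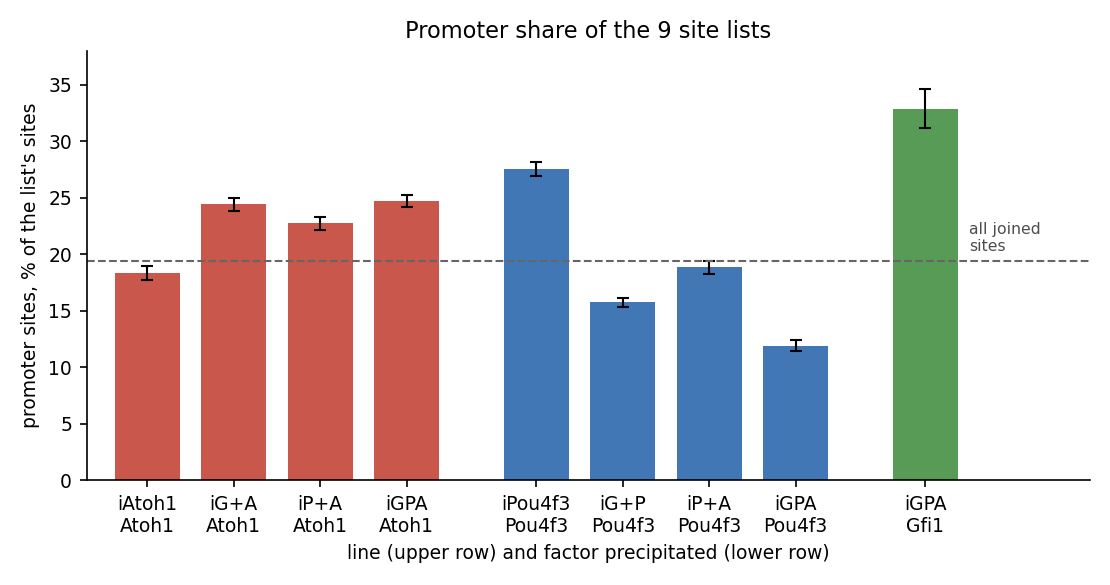
Promoter sites as a percentage of the sites of each list, with bars coloured by factor and whiskers showing the exact binomial 95% interval for counting error. The dashed line is the share over all joined sites, 19.4%, and the Pou4f3 bars span 11.9 to 27.5% while the Atoh1 bars span 18.3 to 24.7%.

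The share moved in opposite directions for the 2 factors when lines with and without Gfi1 were set side by side. From iAtoh1 to iG+A the share of Atoh1 sites at promoters was 6.09 percentage points higher, and from iP+A to iGPA it was 1.96 points higher. For Pou4f3 the change was -11.8 points from iPou4f3 to iG+P and -6.95 points from iP+A to iGPA. These opposite directions were also found under 10 of 10 alternative settings, but each line gave 1 list per factor and the difference was not tested. Where Pou4f3 was the added factor, the promoter share of Atoh1 sites was 4.41 and 0.281 points higher, and where Atoh1 was added the change for Pou4f3 sites was -8.70 and -3.86 points. The lists also differed in how they were reduced from the called peaks, a step whose rule is not stated. In the 4 Atoh1 lists 77.0 to 90.1% of called promoter peaks were kept against 62.3 to 80.5% of other peaks, while in iPou4f3 and in iGPA 78.9 and 79.8% of Pou4f3 promoter peaks were kept against 85.9 and 86.8% of other peaks. For the Pou4f3 lists of iG+P and iP+A the order was as for Atoh1, with 81.1 and 70.6% of promoter peaks kept against 79.9 and 67.98% of other peaks. The part of this step in the shares was not tested beyond the use of all called peaks as an alternative.

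Atoh1 promoter sites lay closer to the start than Pou4f3 promoter sites in every list. The median distance of the site midpoint from the start was 162, 143, 161 and 157 bp in the Atoh1 lists of iAtoh1, iG+A, iP+A and iGPA. In the Pou4f3 lists of iPou4f3, iG+P, iP+A and iGPA it was 169, 194, 188 and 212 bp, and in the Gfi1 list 183 bp. The 4 Atoh1 values did not overlap the 4 Pou4f3 values, although iAtoh1 and iPou4f3 differed by under 10 bp. The mean difference was 34.9 bp, with 156 bp ± 8.81 (SD, n = 4) for Atoh1 and 191 bp ± 17.5 for Pou4f3 (exact permutation test, p = 0.0286, the smallest that 4 against 4 lists allow, adjusted p = 0.0524 over 11 measures). The share of promoter sites within 100 bp of the start was 35.5 to 39.7% in the Atoh1 lists, 30.4 to 33.0% in the Pou4f3 lists and 34.1% in the Gfi1 list (Atoh1 against Pou4f3, exact permutation p = 0.0286, adjusted p = 0.0524). Measured from each list's own summit instead, the median distance averaged 158 bp for Atoh1 and 199 bp for Pou4f3 (exact permutation p = 0.0286, adjusted p = 0.0524).

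The place of the summits relative to the direction of transcription also differed in shape. In 100 bp bins, the fullest bin of each Atoh1 list lay directly next to the start and held 19.1% of the promoter sites in iAtoh1 and 21.5% in iG+A. In the Pou4f3 lists of iPou4f3, iG+P and iP+A the fullest bin lay 100 to 200 bp downstream, with 17.7%, 16.9% and 17.0% of the sites. The same downstream bin held 9.45%, 8.99% and 9.20% of the Atoh1 sites in iAtoh1, iG+A and iGPA and 13.2% in iP+A. The Pou4f3 list of iGPA departed from the other 3, since its fullest bin lay within 100 bp upstream (15.8%). By site midpoint, the share of sites upstream of the start was 42.6 to 47.2% for Atoh1 and 39.6 to 47.2% for Pou4f3, a difference within the spread (exact permutation p = 0.171), and it was 51.8% for Gfi1.

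**Figure D2:**
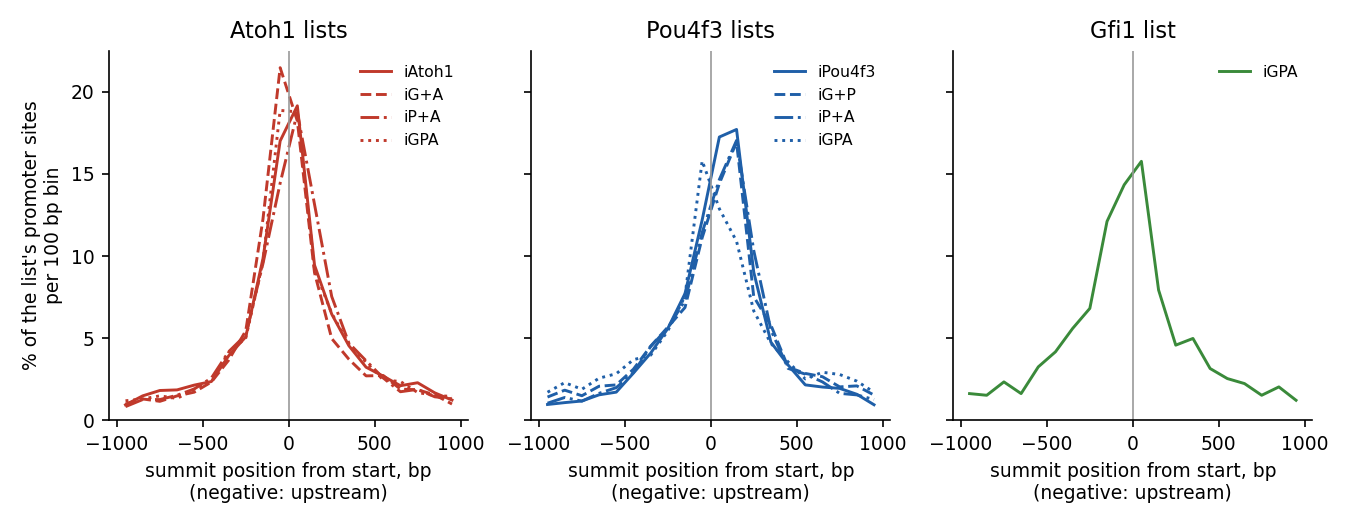
Percentage of the promoter sites of each list per 100 bp bin of summit position, in bp from the start with negative values upstream, for the Atoh1 lists (left), Pou4f3 lists (middle) and Gfi1 list (right). The Atoh1 curves peak in the bins next to the start, while the Pou4f3 curves of iPou4f3, iG+P and iP+A peak 100 to 200 bp downstream at 16.9 to 17.7%.

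Promoter sites were mostly CpG-rich and other sites seldom were. A window of 250 bp around the summit was called CpG-rich when its GC content was over 50% and its ratio of observed to expected CpG was over 0.6. CpG-rich windows made up 62.7 to 67.0% of promoter sites in the Atoh1 lists, 58.7 to 74.6% in the Pou4f3 lists and 59.9% in the Gfi1 list. Among other sites the share was 1.72 to 5.78% in the 9 lists, and among windows at all 69963 annotated starts of protein-coding genes it was 43.7%. Within lists, promoter sites exceeded other sites by 61.8 percentage points ± 5.28 (SD, n = 9 lists, higher in 9 of 9, exact sign-flip permutation test, p = 0.00391, adjusted p = 0.00977). Promoter sites were picked by nearness to starts, which are often CpG-rich by the same definition. The direction was therefore largely set by the rule, and this p says nothing about the factors. Lists of 1 line share cells and input, and lists share sites, so the 9 lists are not fully independent.

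Between factors the CpG content differed little. The median ratio of observed to expected CpG at promoter sites was 0.733 to 0.759 in the Atoh1 lists and 0.762 to 0.848 in the Pou4f3 lists, with no overlap (difference -0.0717, exact permutation p = 0.0286, adjusted p = 0.0524), and 0.728 in the Gfi1 list. The order did not hold for the stronger peaks: with peaks of −log10 p of at least 10 alone, the difference was 0.0210 in the opposite direction (exact permutation p = 0.886). Median GC content was 65.2 to 66.4% for Atoh1, 61.6 to 68.4% for Pou4f3 and 58.8% for Gfi1, and the CpG-rich share was 64.8% on average for Atoh1 against 67.8% for Pou4f3 (exact permutation p = 0.914 for GC and p = 0.4 for the share).

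E-boxes were the commonest of the searched patterns at Atoh1 promoter sites. CAGNTG, the core that Atoh1 recognises, was present in 81.2% of the promoter sites of iAtoh1, 70.3% of iG+A, 73.9% of iP+A and 78.6% of iGPA. In the Pou4f3 lists of iPou4f3, iG+P, iP+A and iGPA it was present in 36.5%, 38.4%, 35.4% and 39.8%, and in the Gfi1 list in 37.95%. The Pou4f3 and Gfi1 shares lay below the 45.8% of windows at all annotated starts, and the Atoh1 shares lay above it. The difference between factors was 38.5 percentage points (76.0% ± 4.86 against 37.5% ± 1.94, SD, n = 4 lists each, exact permutation p = 0.0286, adjusted p = 0.0524). The form CAGCTG alone was present in 40.7 to 53.1% of Atoh1 promoter sites against 11.9 to 13.3% of Pou4f3 promoter sites and 15.2% of all starts. A longer extended E-box has been described for Atoh1 in the cerebellum, and its matches can also contain CAGNTG. This extended E-box was found in 9.02 to 11.2% of Atoh1 and 1.06 to 2.03% of Pou4f3 promoter sites (exact permutation p = 0.0286, adjusted p = 0.0524). It was found in 2.34% of Gfi1 promoter sites and 1.38% of all starts.

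Atoh1 promoter sites carried the CAGNTG core about as often as Atoh1 sites elsewhere, but the extended E-box less often. Outside promoters CAGNTG was present in 69.0% of the sites of iAtoh1, 76.0% of iG+A, 74.8% of iP+A and 85.2% of iGPA. In iAtoh1 the promoter share was thus higher than the share elsewhere, while in each of the other 8 lists it was lower. Over the 9 lists of all factors the difference was -6.32 points ± 9.04 (SD, exact sign-flip permutation p = 0.0664, adjusted p = 0.0830), and without the iAtoh1 list it was -8.63 points. No p is given for the latter, since 8 differences of the same sign can only return the smallest p of the test. The extended E-box was present in 11.2% of the Atoh1 promoter sites of iAtoh1, 9.03% of iG+A, 9.02% of iP+A and 9.69% of iGPA. Outside promoters its shares in the same order were 16.3, 18.7, 17.7 and 22.2%, a difference that was not tested.

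The POU pattern behaved otherwise: it was common at Pou4f3 sites elsewhere and much rarer at Pou4f3 promoter sites. With up to 1 mismatch, ATAATTAAT was present in 8.96% of the Pou4f3 promoter sites of iPou4f3, 14.0% of iG+P, 12.6% of iP+A and 22.7% of iGPA. At the other sites of the same lists it was present in 54.9%, 48.0%, 46.9% and 59.0%. In the Atoh1 lists it was present in 1.03 to 2.41% of promoter sites and 4.72 to 12.7% of other sites, and in the Gfi1 list in 3.26 and 15.4%. Promoter sites were lower in 9 of 9 lists, by 21.2 percentage points ± 16.2 (SD, exact sign-flip permutation p = 0.00391, the smallest that 9 lists allow, adjusted p = 0.00977). Even so, the share at Pou4f3 promoter sites lay above the 2.93% of windows at all starts in each of the 4 lists, and above the Atoh1 lists without overlap (14.6% ± 5.80 against 1.74% ± 0.746, exact permutation p = 0.0286, adjusted p = 0.0524).

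**Figure D3:**
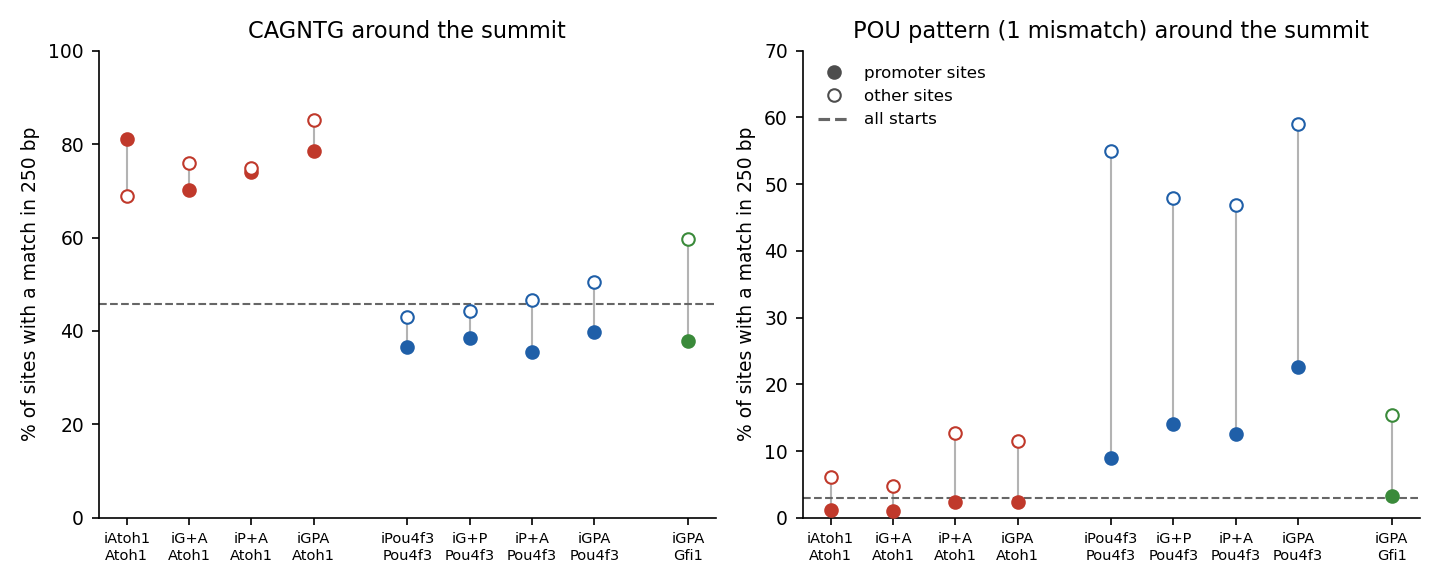
Percentage of sites with CAGNTG (left) and with the POU pattern (right) in 250 bp around the summit, for promoter sites (filled circles) and other sites (open circles) of each list, joined by a line. The dashed lines are windows at all annotated starts, 45.8% and 2.93%, and for the POU pattern the Pou4f3 lists lie at 8.96 to 22.7% for promoter sites against 46.9 to 59.0% for other sites.

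The share of POU patterns was lowest where the sequence was CpG-rich. At CpG-rich Pou4f3 promoter sites the pattern was present in 1.16% of those of iPou4f3, 1.89% of iG+P, 1.90% of iP+A and 3.68% of iGPA, against 0.468% of windows at CpG-rich starts. At the remaining Pou4f3 promoter sites it was present in 31.8%, 38.1%, 39.6% and 49.6%, against 4.85% of windows at the remaining starts, and in each list this was also below the share at sites away from promoters. The POU pattern is AT-rich, so each share is given beside that of starts of the same CpG class. The share also increased with distance from the start: in iPou4f3 it was 3.08% within 100 bp, 7.08% from 100 to 500 bp and 28.3% from 500 bp to 1 kb. In iGPA the same shares of Pou4f3 sites were 10.4%, 19.9% and 43.8%. CpG-rich shares over the same distances fell, at 88.8, 76.8 and 35.8% in iPou4f3 and 81.8, 63.1 and 20.3% in iGPA. Distance and CpG content were not separated here.

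E-boxes were less tied to CpG content. At CpG-rich Atoh1 promoter sites CAGNTG was present in 78.5% of those of iAtoh1, 63.1% of iG+A, 68.8% of iP+A and 71.6% of iGPA, against 34.9% at CpG-rich starts. At the remaining Atoh1 promoter sites it was present in 84.1 to 90.8%, against 54.3% at the remaining starts. CpG-rich Pou4f3 promoter sites, with 32.2 to 35.5%, were close to the CpG-rich starts in this measure, and CpG-rich Gfi1 promoter sites had 32.4%.

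**Figure D4:**
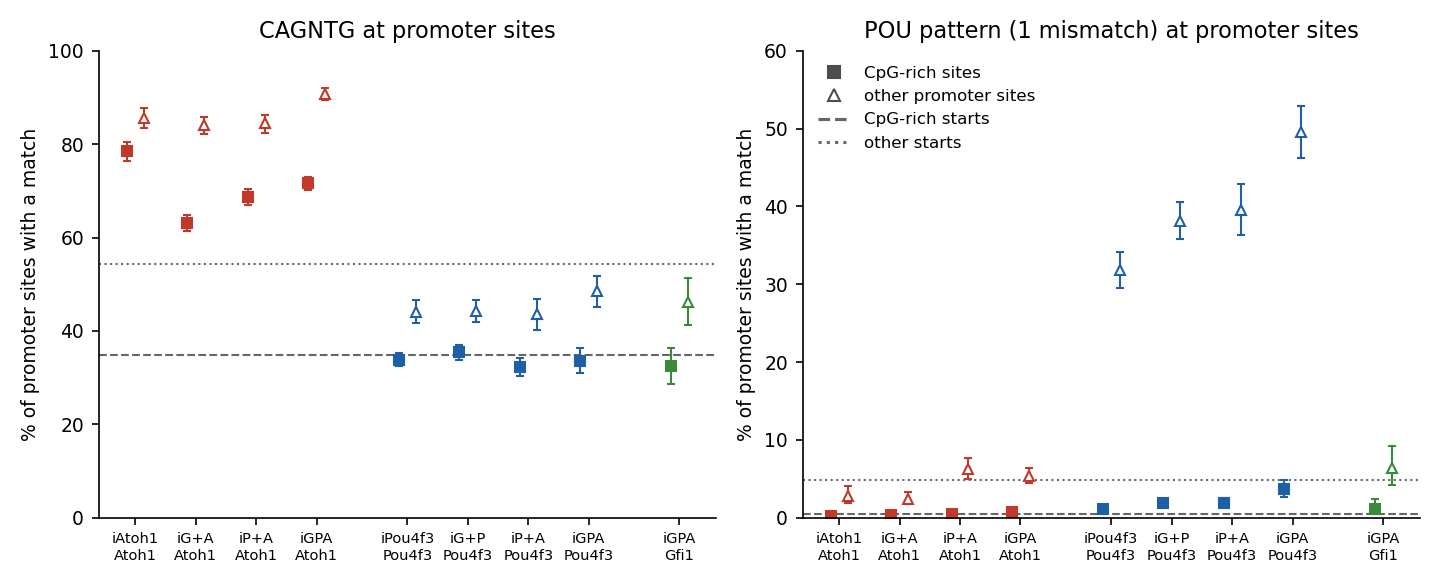
Percentage of promoter sites with CAGNTG (left) and with the POU pattern (right), split into CpG-rich sites (filled squares) and other promoter sites (open triangles) of each list, with exact binomial 95% intervals for counting error. Dashed and dotted lines are CpG-rich and other starts, and CpG-rich Pou4f3 sites lie at 1.16 to 3.68% for the POU pattern while CpG-rich Atoh1 sites lie at 63.1 to 78.5% for CAGNTG.

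The Gfi1 pattern was found at 8.85% of Gfi1 promoter sites (exact binomial 95% interval 7.15 to 10.8%) and at 6.08% of the other Gfi1 sites. In the other 8 lists it was present at 0.253 to 0.558% of promoter sites, and at all starts in 0.470%. Atoh1 and Pou4f3 promoter sites did not differ beyond the spread in this pattern (difference 0.110 percentage points, exact permutation p = 0.229). It was present at 7.98% of CpG-rich and 10.2% of the remaining Gfi1 promoter sites. With 1 library of Gfi1, no spread between lines could be measured. Of the 11 measures compared between Atoh1 and Pou4f3, 6 had the smallest p of 0.0286 in the exact permutation test, and 0 had an adjusted p at or below 0.05.

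Stronger promoter peaks carried the pattern of the precipitated factor more often. Between the lower and the upper quartile of promoter sites by −log10 p, the CAGNTG share of Atoh1 lists was 69.3 and 94.2% in iAtoh1, 56.0 and 90.2% in iG+A, 59.2 and 91.9% in iP+A, and 61.9 and 95.2% in iGPA. The POU share of Pou4f3 lists was 5.69 and 17.9% in iPou4f3, 6.56 and 30.6% in iG+P, 5.69 and 27.3% in iP+A, and 6.85 and 48.8% in iGPA. The Gfi1 pattern was present at 3.27 and 15.1% of Gfi1 promoter sites. The upper quartile exceeded the lower in each of these 9 lists. The quartiles also differed in CpG content. CpG-rich shares of the lower and the upper quartile of Pou4f3 sites were 71.4 and 47.8% in iG+P, 76.6 and 56.6% in iP+A, and 77.5 and 30.3% in iGPA. In iPou4f3 they went the other way, at 68.8 and 71.9%. In the Atoh1 lists they were 69.3 to 70.6% and 54.9 to 59.5%, and in the Gfi1 list 67.4 and 58.0%. Peak strength and CpG content were not separated here.

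Promoter sites were slightly less enriched than other sites. The median fold enrichment over the local background, as given by the peak caller, was 3.18 at both kinds of site in iAtoh1, 3.20 at promoter against 3.34 at other sites in iG+A, 3.01 against 3.12 in iP+A and 3.45 against 3.57 in iGPA. In the Pou4f3 lists it was 3.10 against 3.45 in iPou4f3, 2.85 against 3.07 in iG+P, 2.94 against 3.17 in iP+A and 3.495 against 4.22 in iGPA. In the Gfi1 list it was 4.33 against 4.40. The difference was -0.218 ± 0.217 (SD, n = 9 lists, lower in 8 and tied in iAtoh1, exact sign-flip permutation p = 0.00781, adjusted p = 0.0130). Fold values also depend on the depth of the libraries, which the lists do not give, so enrichment was tested within lists alone, and fold values of different lists are given side by side without a test.

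Of the promoter sites, 6569 (43.3%) were in 1 list, against 47.7% of other sites, and 15 were in all 9 lists. Averaged over the sites of a list, promoter sites were in 3.49 lists and other sites in 3.18, a difference of 0.309 ± 0.462 (SD, higher in 7 of 9 lists, exact sign-flip permutation p = 0.0859). The share of its promoter sites found in that list alone was, for Atoh1, 9.88% of those of iAtoh1, 18.5% of iG+A, 10.6% of iP+A and 20.8% of iGPA, and for Pou4f3 26.8% of those of iPou4f3, 22.0% of iG+P, 12.6% of iP+A and 8.42% of iGPA. For Gfi1 it was 32.9%.

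Read from the line with fewer factors, Atoh1 promoter sites were shared between lines more often than Pou4f3 promoter sites. Of the Atoh1 promoter sites of iAtoh1, 64.2% were also in the Atoh1 list of iG+A and 62.7% in that of iP+A, and of those of iP+A 68.6% were in that of iGPA. Of the Pou4f3 promoter sites of iPou4f3, 44.3% were in the Pou4f3 list of iG+P and 33.2% in that of iP+A, and of those of iP+A 36.2% were in that of iGPA. For sites away from promoters the same 3 shares, in the same order, were 51.3, 48.9 and 56.3% for Atoh1 and 70.3, 48.98 and 58.9% for Pou4f3. As shares of the second list, 36.5, 41.2 and 45.6% of promoter sites were shared in the Atoh1 pairs and 54.1, 64.2 and 51.6% in the Pou4f3 pairs, since the lists differ in length. These overlaps are descriptions, and lists of unequal length bound them.

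Within 1 line the factors met at a minority of promoter sites. A shared site here is 1 joined site, in which the summits of the lists can lie apart. The median width of promoter sites was 323 bp, 1500 were over 600 bp and the widest was 2291 bp. In iP+A 970 promoter sites were in both lists, which was 23.1% of the Atoh1 and 30.7% of the Pou4f3 promoter sites. In iGPA 853 were shared, 13.5% of the Atoh1 and 38.4% of the Pou4f3 promoter sites, against 16.8 and 19.6% of the other sites. Of the Gfi1 promoter sites of iGPA, 34.1% were also in the Atoh1 list and 18.6% in the Pou4f3 list, against 50.7 and 28.2% of the Gfi1 sites elsewhere.

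Sites in lists of both factors were found at promoters more often than sites of Atoh1 or Pou4f3 alone. Of the sites in at least 1 Atoh1 and at least 1 Pou4f3 list, 4174 of 14309 (29.2%) were promoter sites, and 80% of these were CpG-rich. Of the sites in Atoh1 lists alone 5178 of 29419 (17.6%) were promoter sites, of those in Pou4f3 lists alone 5164 of 32783 (15.8%), and of those in the Gfi1 list alone 323 of 914 (35.3%). How much of the signal at these CpG-rich sites would appear in cells without the tags was not tested.

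The stable sites of each factor differed in kind. Of the 2859 sites in all 4 Atoh1 lists and in no other list, 615 (21.5%) were promoter sites, with CAGNTG in 97.6%, CpG-rich sequence in 48.6% and a median distance of 160 bp. Of the 5123 sites in all 4 Pou4f3 lists and in no other, 395 (7.71%) were promoter sites, with the POU pattern in 50.1%, CpG-rich sequence in 30.1% and a median distance of 375 bp. The 62 promoter sites in all 8 Atoh1 and Pou4f3 lists but not in the Gfi1 list held CAGNTG in 74.2% and the POU pattern in 6.45%, were CpG-rich in 79.0% and lay 122 bp from the start in the median. All 15 promoter sites in the 9 lists held CAGNTG and none held the POU pattern. Promoter sites of the Gfi1 list alone held the Gfi1 pattern in 11.2% and lay 320 bp away in the median. These values are descriptions, since the classes were made from the same lists.

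The sites named next lead their class by the mean percentile of their fold in the lists of the class. In what follows, 4 fold values of a site are given in the order iAtoh1, iG+A, iP+A, iGPA for Atoh1 and iPou4f3, iG+P, iP+A, iGPA for Pou4f3. Atoh1 lists alone were led by 5 sites in coding exons of Gm11568, Gm11567, Gm11563, Gm11559 and Krtap4-2, neighbours in a keratin-associated protein gene cluster on chromosome 11. They held 9 to 12 CAGNTG matches each, and their fold enrichment was 8.43 to 12.0 in iAtoh1 and 14.9 to 19.2 in iGPA. The genes belong to a multigene family, and how reads were assigned between similar copies was not tested. The Dll3 site, at -98.5 bp from the start, had folds of 8.06, 8.81, 11.4 and 23.0.

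Pou4f3 lists alone were led by Osbpl7, which encodes an oxysterol-binding protein relative. Its site lay in an intron (chr11:96912614-96912915), with a fold enrichment of 49.2, 58.0, 33.2 and 97.6, and it held no match to the POU pattern. Coro1b, for a coronin that binds actin, had 43.7, 34.04, 17.1 and 55.04 at a site at -507 bp from the start (chr19:4147958-4148265), also without a match. Uba1, the ubiquitin-activating enzyme on the X chromosome, had 34.4, 16.3, 11.1 and 26.9 at a site with a POU pattern (chrX:20236323-20236629). Sites with a POU pattern followed at Neurog1 (17.1, 16.8, 13.5 and 20.8), at the serotonin receptor gene Htr1d (17.95, 13.2, 8.94 and 23.01) and near Lig4 and Abhd13, which encode a DNA ligase and a hydrolase-like protein (13.9, 13.5, 9.96 and 19.8).

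At promoter sites of both factors the enrichment was modest. The 6 leading sites in the 8 lists without Gfi1 were at Efha1, 2810422J05Rik, Dpp9, Stag1, Zmym4 and Acad11, within 132 bp of a start. Efha1 had Atoh1 folds of 4.03, 4.14, 3.77 and 8.26 and Pou4f3 folds of 20.4, 7.22, 9.28 and 7.22, and Stag1, a cohesin subunit gene, had 4.89, 4.46, 4.20 and 7.34 and 4.14, 6.02, 4.87 and 5.68. Of the 6, 5 were CpG-rich, the exception being Zmym4. In all 9 lists the leading sites were at Mll1, Hlcs, Nhlh1, Cd2ap, 2610042L04Rik and Psmd3. Mll1, a histone H3 lysine methyltransferase gene, had folds of 6.28 to 9.52 in the 9 lists at a CpG-rich site (chr9:44689167-44689704).

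Nhlh1, a neuronal basic helix-loop-helix gene, was unlike these. Its site at -231 bp (chr1:173987770-173988099) was CpG-poor and held 2 CAGNTG matches. Atoh1 was enriched there 3.05-fold in iAtoh1 and 3.61-fold in iG+A, but 21.4-fold in iP+A and 40.9-fold in iGPA. Pou4f3 was enriched 13.9-fold in iPou4f3, 16.3-fold in iG+P, 13.9-fold in iP+A and 34.8-fold in iGPA, and Gfi1 3.27-fold. The site was thus in all 9 lists, and the median Atoh1 fold over promoter sites was 3.18, 3.20, 3.01 and 3.45 in the same 4 lines.

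Promoter sites of the Gfi1 list alone were led by Itsn1, with a fold of 17.8 at a site -6 bp from its start that was also within 1 kb of a Cryzl1 start (chr16:91729660-91729959). It was followed by Alg14, a glycosylation enzyme gene (15.0), Gm10644 and Asf1b, the latter a histone chaperone gene (13.6), the kinase gene Map3k3 (12.97), the homeobox gene Irx3 (11.7) and Fkbp1a, which encodes a protein that binds immunosuppressant drugs (11). The Gfi1 pattern was present at the Gm10644 and Fkbp1a sites and at none of the other 4.

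Of 22367 protein-coding genes, 10713 (47.9%) had a promoter site in any list. The shares of genes with an Atoh1 promoter site were 12.1% for iAtoh1, 20.7% for iG+A, 18.3% for iP+A and 25.9% for iGPA, and 35.8% (8001 genes) in any and 6.77% (1514) in all 4 lists. Those with a Pou4f3 promoter site were 25.9% for iPou4f3, 20.6% for iG+P, 14.1% for iP+A and 9.95% for iGPA, and 34.9% (7798 genes) in any and 4.84% (1083) in all 4 lists. Gfi1 had promoter sites at 4.77% of genes (1066). Genes with a CpG-rich start had a site in any list more often, 73.5% of 12511 genes against 15.4% of the other 9856. Of the genes in all 4 Atoh1 lists 12.6% were also in all 4 Pou4f3 lists, and of the latter 17.5% were in the former (190 genes). In iGPA, 53.1% of the genes with a Gfi1 promoter site also had an Atoh1 promoter site and 28.6% a Pou4f3 promoter site. A gene can be in several lists through different sites, and 10.4% of promoter sites lay within 1 kb of starts of more than 1 gene.

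Genes of the Notch pathway, through which differentiating cells hold back their neighbours, stood at 79.3% in any Atoh1 list (23 of 29 genes) beside 35.8% of all genes. They stood at 65.5% in any Pou4f3 list beside 34.9%, and 82.8% of them had CpG-rich starts. In all 4 Atoh1 lists were 10 members, namely the effectors Hes1, Hey1 and Heyl, the Hes1 antagonist Hes6, the DNA-binding mediator Rbpj, the coactivator Maml3, the receptor Notch4, the ligand Dll3, the glycosyltransferase Mfng and Numbl, against 0 in all 4 Pou4f3 lists. Over all genes these shares were 6.77 and 4.84%. Per list, Atoh1 had 14 to 17 Notch genes, while Pou4f3 had 15 in each of iPou4f3 and iG+P, 3 in iP+A (Jag1, Rfng and Notch2) and 4 in iGPA (Hes1, Hes6, Maml3 and Jag2). The last 2 counts were 10.3 and 13.8% of the Notch genes, near the 14.1 and 9.95% of all genes in these lists. Gfi1 had 3 (Hes1, Hes6 and Maml3).

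Hes6, which antagonises Hes1, had high Atoh1 folds in every line. At -282 bp from its start (chr1:93310660-93311133) the Atoh1 folds were 15.3, 25.4, 20.7 and 28.8, with 3 CAGNTG matches in CpG-rich sequence. Pou4f3 was enriched there 2.63-fold in iG+P and the site was in none of the other 3 Pou4f3 lists, and Gfi1 was enriched 5.28-fold. Hes1 (chr16:30064100-30064587) had Atoh1 folds of 7.45, 8.41, 4.11 and 9.23 and Pou4f3 folds of 2.74 in iG+P and 2.50 in iGPA.

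Basic helix-loop-helix, E protein and Id genes stood at 55.6% for both factors (15 of 27 genes in any Atoh1 and in any Pou4f3 list), beside 35.8 and 34.9% of all genes. In all 4 lists Atoh1 had 7 of them and Pou4f3 had 7 (25.9% each), beside 6.77 and 4.84% of all genes. Of the listed genes, 74.1% had CpG-rich starts. Nhlh1 and the E protein genes Tcf12 and Tcf4 were in both of these sets. Neurod1, Atoh8, Id1 and Atoh1 were in the Atoh1 set alone, and the proneural genes Neurog1 and Neurog2, Olig1 and Id2 in the Pou4f3 set alone. At Id2, an inhibitor of helix-loop-helix dimers, a CpG-poor site with a POU pattern (chr12:25781604-25781946) had Pou4f3 folds of 4.64, 5.14, 3.28 and 8.74 and a Gfi1 fold of 5.28, and was in no Atoh1 list. At Id1 a CpG-rich site at -978 bp (chr2:152560844-152561173) had Atoh1 folds of 3.42, 5.74, 5.38 and 8.49. That site was in no Pou4f3 or Gfi1 list. Both genes also had a site with peaks of both factors. The other Id1 site, at 145 bp, had Pou4f3 folds of 2.75 in iPou4f3 and 2.52 in iG+P. Its Atoh1 folds were 3.57 in iGPA and 2.47 in iP+A. The other Id2 site, at -222.5 bp, had Atoh1 folds of 2.94, 2.80 and 3.21 in the Atoh1 lists other than iAtoh1. Its Pou4f3 fold was 3.17 in iG+P alone. Gfi1 had promoter sites at Nhlh1, Id2, Id3 and Atoh1.

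Pooled over the lists of a factor, hair cell genes were near the background, at 37.1% (13 of 35 genes) in any Atoh1 and in any Pou4f3 list, beside 35.8 and 34.9% of all genes. Of the hair cell genes, 54.3% had CpG-rich starts. Atoh1 had 3 of them in iAtoh1 (Pou4f3, Pvalb and Lhfpl5), 7 in iG+A, 10 in iGPA and 6 in iP+A, and Pou4f3 had 6 in iPou4f3, 12 in iG+P, 8 in iGPA and 7 in iP+A. In the line order of the folds, these were 8.57, 20.0, 17.1 and 28.6% for Atoh1, beside 12.1, 20.7, 18.3 and 25.9% of all genes. For Pou4f3 they were 17.1, 34.3, 20.0 and 22.9%, beside 25.9, 20.6, 14.1 and 9.95%. The Pou4f3 share was thus below that of all genes in iPou4f3 and above it in iG+P, iP+A and iGPA. In all 4 Pou4f3 lists were Pou4f3 itself, whose coding sequence the cassettes also carry, the unconventional myosin genes Myo6 and Myo3b, and Slc17a8, the vesicular glutamate transporter of inner hair cells. They made up 11.4% of the hair cell genes, beside 4.84% of all genes. The Myo6 site in an intron (chr9:80012886-80013405) was CpG-poor with a POU pattern and had Pou4f3 folds of 8.80, 9.19, 7.70 and 11.1, and an Atoh1 fold of 2.90 in iP+A alone. Myo3b had Pou4f3 folds of 6.30, 4.27, 4.42 and 5.92, and Slc17a8 2.62, 3.07, 3.62 and 4.52, with no Atoh1 or Gfi1 peak at either site. Gfi1 had promoter sites at Pou4f3, Rfx3 and Insm1.

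Neuronal genes stood at 48.1% in any Atoh1 list (13 of 27) and 44.4% in any Pou4f3 list (12), beside 35.8 and 34.9% of all genes. In all 4 lists of a factor they stood at 14.8% for Atoh1 and 7.41% for Pou4f3, beside 6.77 and 4.84%. Of the neuronal genes, 70.4% had CpG-rich starts. The RNA-binding protein genes Elavl2 and Rbfox3 and the homeobox genes Isl1 and Pou4f1 were in all 4 Atoh1 lists, and Gap43 and Stmn2, for proteins of growing axons, were in all 4 Pou4f3 lists. Pou4f1 had Atoh1 folds of 5.01, 4.41, 4.63 and 6.65 at a CpG-rich site at -58.5 bp with 2 CAGNTG matches (chr14:104867055-104867493), and a Pou4f3 fold of 2.77 in iGPA alone. Gap43 had Pou4f3 folds of 6.89, 3.28, 5.09 and 4.95 at a CpG-poor site (chr16:42340715-42341339) that was in no Atoh1 list. The sequence at its summit was a tandem repeat with a unit of 2 bp, and the part of read placement in these folds was not tested.

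Genes of cell cycle exit stood at 76.2% in any Atoh1 list (16 of 21) and 52.4% in any Pou4f3 list (11), with 90.5% CpG-rich starts. Beside these stood 35.8 and 34.9% of all genes, and 55.0 and 56.0% of genes with CpG-rich starts. E2f1, Rb1 and Gadd45g (14.3%) were in all 4 Atoh1 lists and none was in all 4 Pou4f3 lists. Over all genes the latter shares were 6.77 and 4.84%, and over genes with CpG-rich starts 10.3 and 7.83%. An E2f1 site in an intron (chr2:154394495-154394983) held 3 CAGNTG matches and had Atoh1 folds of 6.72, 6.54, 5.73 and 8.25. Pluripotency genes stood at 27.3% in any Atoh1 list (6 of 22) and 50% in any Pou4f3 list (11), beside 35.8 and 34.9% of all genes. In all 4 lists of a factor they stood at 9.09% for each, beside 6.77 and 4.84%. Klf4 and Lin28a were in all 4 Atoh1 lists, and Klf4 had Atoh1 folds of 6.96, 8.41, 5.58 and 13.2 (chr4:55545368-55545896), while Tet2 and Lin28b were in all 4 Pou4f3 lists.

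Hox genes, which pattern the body axis, stood at 17.95% in any Atoh1 list (7 of 39) and 51.3% in any Pou4f3 list (20), beside 35.8 and 34.9% of all genes. Of the Hox genes 71.8% had CpG-rich starts, and over all genes with such starts the shares were 55.0 and 56.0%. By line in the order of the folds, Pou4f3 had 30.8, 30.8, 25.6 and 10.3% of the Hox genes, beside 25.9, 20.6, 14.1 and 9.95% of all genes. Hoxb3, Hoxa3 and Hoxd11 were in all 4 Pou4f3 lists (7.69%, beside 4.84% of all genes). These 3 had CpG-poor sites with a POU pattern and no Atoh1 or Gfi1 peak. Their Pou4f3 folds were 5.78, 6.68, 5.32 and 7.86 at Hoxb3 (chr11:96189337-96189665), 4.87, 4.93, 3.62 and 4.95 at Hoxa3 and 5.71, 4.93, 4.19 and 6.55 at Hoxd11.

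Among genes that every cell uses, the factors differed most at the cytosolic ribosome. Of 81 genes for cytosolic ribosomal proteins, 66 (81.5%) had a Pou4f3 promoter site in any list and 36 (44.4%) an Atoh1 promoter site, and 96.3% had CpG-rich starts. Counted by line in the same order as the folds, Pou4f3 had 60, 53, 35 and 25 and Atoh1 had 13, 15, 17 and 22. Every Pou4f3 list thus held more of these genes than any Atoh1 list, with 74.1, 65.4, 43.2 and 30.9% of the genes beside 25.9, 20.6, 14.1 and 9.95% of all genes and 42.6, 32.9, 22.9 and 15.9% of genes with CpG-rich starts. The Atoh1 shares were 16.1, 18.5, 21.0 and 27.2%, beside 18.2, 32.1, 28.7 and 40.1% of genes with CpG-rich starts. Rpl32 was in all 8 lists at 1 site (chr6:115758463-115758855), with Atoh1 folds of 3.91, 6.28, 6.78 and 10.3 and Pou4f3 folds of 3.55, 3.503, 4.19 and 2.92. Genes of the mitochondrial ribosome, with 94.7% CpG-rich starts, stood at 60.0% for Atoh1 (45 of 75) and 61.3% for Pou4f3 (46). Proteasome genes, with 92.3% CpG-rich starts, stood at 23.1% (9 of 39) and 46.2% (18). Of all genes with CpG-rich starts, 55.0% were in any Atoh1 list and 56.0% in any Pou4f3 list.

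Replication-dependent histone genes stood at 61.2% in any Atoh1 list (41 of 67), 50.7% in any Pou4f3 list (34) and 16.4% in the Gfi1 list (11). Over all genes these shares were 35.8, 34.9 and 4.77%. They lie in clusters, so that 1 site can count for several genes, and copies are near-identical. Olfactory receptor genes, which have CpG-poor starts and are silent outside the nose, stood at 0.736% (8 of 1087), 0.644% (7) and 0, and Olfr538 and Olfr94 were in all 4 Atoh1 lists. Beside 4.77% of all genes, and 7.77% of those with CpG-rich starts, Gfi1 counts in the lists were 3 of 29 for Notch, 4 of 27 for helix-loop-helix, 4 of 27 for neuronal (Elavl2, Elavl4, Gap43 and Syp), 1 of 21 for cell cycle exit (Gadd45a), 2 of 22 for pluripotency (Klf4 and Tbx3), 2 of 39 for Hox (Hoxd9 and Hoxa10) and 4 of 39 for proteasome (Psmd3, Psmb2, Psmb1 and Psmd11). All shares of gene lists are descriptions without a test, and the lists were chosen with earlier results of these data known.

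**Figure D5:**
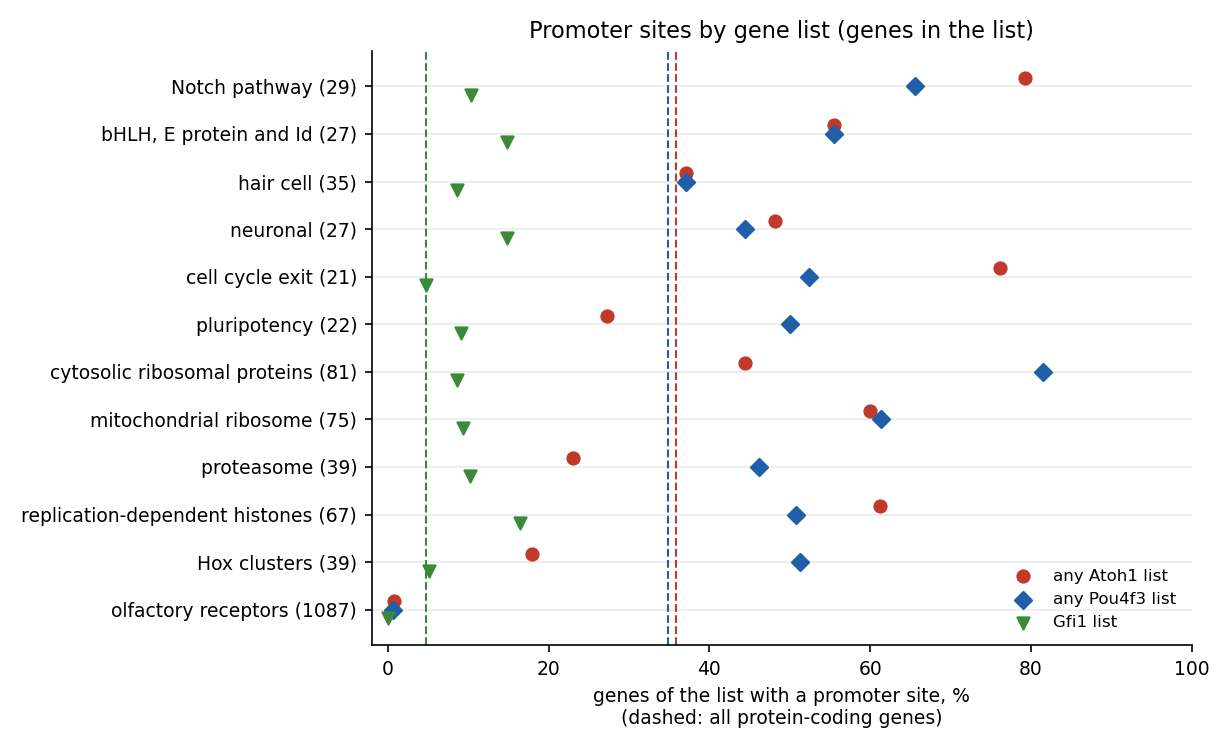
Percentage of the genes of each list with a promoter site in any Atoh1 list (circles), any Pou4f3 list (diamonds) and the Gfi1 list (triangles), with the number of genes in brackets. Dashed lines are the shares over all protein-coding genes, 35.8, 34.9 and 4.77%, and cytosolic ribosomal genes lie at 81.5% for Pou4f3 against 44.4% for Atoh1.

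The promoters of the induced factors themselves need care, since the inserted cassettes add copies of their coding sequence. A site over the coding exon of Atoh1 (chr6:64679281-64679798) had Atoh1 folds of 4.89, 3.74, 4.84 and 5.42 and Pou4f3 folds of 6.68 in iP+A and 3.32 in iGPA, and was absent from the Pou4f3 lists of iPou4f3 and iG+P, whose cells carry no Atoh1 cassette. A site farther into the same exon was in the Atoh1 list of iG+A (3.07) and in the Gfi1 list (3.44). A site 992.5 bp downstream of the Pou4f3 start, which overlaps the coding exon, was in the Atoh1 lists of all 4 lines (2.69, 3.07, 3.12 and 4.43), in the Pou4f3 lists of iG+P, iP+A and iGPA (3.94, 6.79 and 3.74) and in the Gfi1 list (4.51). It was thus found in iAtoh1 and iG+A, whose cells carry no Pou4f3 cassette, and was absent from the Pou4f3 list of iPou4f3, whose cells carry it. A Pou4f3 site at +253 bp was in the 4 Pou4f3 lists alone (4.64, 4.27, 3.06 and 5.39). In lines that carry the cassette, binding at the native exons and reads from the cassette cannot be told apart. The Gfi1 gene was not typed as protein-coding in the annotation and has no promoter site by the rule, and 1 site within 1 kb of its starts was in the Pou4f3 lists of iG+P (2.63) and iP+A (3.51).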

How the data were processed

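Chromatin was sequenced from 17 ChIP and 12 input libraries, and 9 peak tables with 9 lists of summits were deposited. By their methods, the authors trimmed reads with Trimmomatic, aligned them to mm9 with Bowtie 2, removed duplicates and reads of low mapping quality, removed blacklisted regions, and called peaks with MACS2 on merged replicates against merged inputs at a permissive p-value. Tool versions are not given in the sources used here. The deposited peak tables hold −log10 p-values and −log10 q-values and the fold, a ratio of the ChIP signal at the summit to the local background. The deposited summit lists hold a subset of the called peaks (15568 of 24119 in iAtoh1, and 3012 of 3838 for Gfi1), chosen by a rule that the sources do not state, and between 15568 and 32632 peaks in each Atoh1 or Pou4f3 list. The deposited summit lists also hold a column of signal whose making by the authors is not stated and which was not used. Reads per library are not in these tables, so depth is unknown.

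Summit windows of 300 bp were joined, and starts of protein-coding genes were taken from GENCODE vM1 on mm9. The midpoint of a joined site gave its distance from the start in every list that held it. For each list, 250 bp around the summit of its strongest peak in a site gave GC, CpG and patterns. That summit also gave the position in 100 bp bins. Atoh1 and Pou4f3 lists (4 each) were compared by the exact permutation test over lists, two-sided, with Benjamini-Hochberg adjustment over 11 measures, and promoter with other sites of a list by the exact sign-flip permutation test over 9 lists, adjusted over 5 measures. Intervals are exact Clopper-Pearson at 95%. Because samples enter merged lists, the spread is that between lines, not between replicates. The procedure was tested on simulated sites. Python 3.11.15, numpy 2.4.6, pandas 2.3.3 and scipy 1.17.1 were used. In each of 5 classes of promoter site the 6 sites with the highest mean percentile of fold were named, and members of gene lists where a count was 5 or fewer or as the 4 in most lists. Some items that these rules name are not reported here. Further members with the most enriched sites were chosen after their values were seen. Sequences are those of the first 2 sites by the same order in a class whose stretch of 60 bp on each side of the summit held no annotated exon base, and 1 or 2 per class are shown. Of the listed genes, Gfi1 and Map2 had no protein-coding type. The members and gene lists were chosen with earlier results of these data known. Alternatives changed the distance, starts, joining window, peak threshold, list length, sequence window and chromosomes, and left out each list.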

Additional observations from a re-analysis of the deposited data

Results flagged for a closer look

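Among the 4 Pou4f3 lists, the share of promoter sites with the Gfi1 pattern was 0.450% in iGPA against 0.253 to 0.262% in the other 3, a gap of 0.956 of the whole range. Of 32 groups of lists examined for such a gap, chance would mark about 1 in 20.

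Several measures of promoter sites moved one way in both Atoh1 pairs and the other way in both Pou4f3 pairs when a line with Gfi1 was set beside a line without it. The pairs were iAtoh1 with iG+A and iP+A with iGPA for Atoh1, and iPou4f3 with iG+P and iP+A with iGPA for Pou4f3, and 16 measures were compared. The difference between the factors was not tested. The promoter share changed by 6.09 and 1.96 percentage points for Atoh1 and by -11.8 and -6.95 points for Pou4f3. The median distance from the start changed by -19.3 and -4.50 bp for Atoh1 and by 25 and 23.5 bp for Pou4f3, and the share within 100 bp by 3.66 and 1.88 points against -2.61 and -0.709 points. The CAGNTG share of promoter minus other sites changed by -17.9 and -5.70 points for Atoh1 and by 0.593 and 0.408 points for Pou4f3. The number of lists per promoter site minus that per other site changed by -0.263 and -0.0668 for Atoh1 and by 0.693 and 0.667 for Pou4f3.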

How the results depend on the processing

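Of 237 results under alternative settings, 210 neither crossed the 0.05 threshold of the unadjusted p nor, where untested, moved beyond the spread, and of 133 with 1 list left out, 131 did not. Some differences that missed the threshold did change sign. With −log10 p of at least 10, Atoh1 minus Pou4f3 was 8.70 for median GC (-0.300 as reported), 8.29 for the CpG-rich share (-3.08) and -2.92 for the upstream share (2.96). GC was 0.100 to 3.00 in 4 other settings and 0.267 and 0.533 without iPou4f3 and without the Pou4f3 list of iP+A, the CpG-rich share was 0.775 with shortened lists, and the Gfi1 pattern was -0.114 with a 500 bp sequence window (0.110). The Atoh1 against Pou4f3 differences in CAGNTG, extended E-box and POU pattern kept p = 0.0286 in the exact permutation test under every alternative setting (no test was run with a list left out), but 0 of 11 factor measures passed Benjamini-Hochberg adjustment under any setting in which all 11 were recomputed. The difference in observed to expected CpG turned to 0.0210 with −log10 p of at least 10, and no longer passed within 2 kb (-0.0515), with starts of any gene type (-0.0782), with 1000 bp joining (-0.0624) or with lists shortened to 15568 peaks (-0.0499). The distance difference no longer passed, at -61.9, -36.1, -17.2 and -41.4 bp in the same settings, -79.3 bp with −log10 p of at least 10 and -26.7 bp with all called peaks. The share within 100 bp missed with 1000 bp joining (3.10) and −log10 p of at least 10 (7.26). Fold of promoter against other sites missed with −log10 p of at least 10 (-0.113) and all called peaks (-0.158). CAGNTG of promoter against other sites passed by unadjusted p with the most 5′ start (-7.72), any gene type (-6.86), 1000 bp joining (-7.58), autosomes (-6.67) and a 500 bp sequence window (-5.93), with adjusted p of 0.0537 for any gene type and 0.0586 for autosomes (exact sign-flip permutation test). Lists per site passed within 500 bp (0.410) and with 1000 bp joining (0.760), but were -0.144 with 100 bp joining, -0.135 with −log10 p of at least 10, -0.0304 with all called peaks and 0.0171 with shortened lists. The mean overlap of pairs was 0.241 and 0.385 with 100 and 1000 bp joining, and 4788 gene symbols had a promoter site at −log10 p of at least 10 (10672 with all listed peaks, counted alike), where Notch genes in any Atoh1 list numbered 12 and ribosomal genes in any Pou4f3 list 38. The causes were not tested.

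Leaving out each list gave 1.82 to 7.03 for promoter share, -42.2 to -28.0 bp for distance, 4.93 to 6.36 within 100 bp, -0.0896 to -0.0612 for CpG, 36.8 to 40.4 for CAGNTG, -14.7 to -10.1 for POU, and 7.76 to 8.49 for the extended E-box. Within lists it gave -0.245 to -0.154 for fold, -8.63 (without iAtoh1) to -4.39 for CAGNTG and 0.243 to 0.420 (without Gfi1) lists per site. No paired analysis was possible because the peaks were called on merged replicates and carry no value per replicate number. Promoter and other sites were paired within lists.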

Other observations

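The 5 leading promoter sites of the Atoh1 lists lay in 1 stretch of chromosome 11, which was then looked at as a whole, after their values were seen. Between chr11:99411446 and chr11:99855308 (mm9) 56 protein-coding genes start, 22 of them named Krtap, for keratin-associated proteins of hair. Of the 56 genes, 28 had a promoter site in the Atoh1 list of iAtoh1, 37 in each of iG+A and iGPA, 25 in iP+A, 41 in any Atoh1 list (73.2%) and 25 in all 4 (44.6%). No gene there had a promoter site in a Pou4f3 list or the Gfi1 list, and among all called peaks in the stretch 146 were Atoh1, 6 Pou4f3 and 0 Gfi1 peaks. The 46 promoter sites held 3 to 14 CAGNTG matches, with a median of 7 against 1 over promoter sites in any Atoh1 list, 43 had their summit in a coding exon, and 0 were CpG-rich. Their median fold enrichment was 6.35 for iAtoh1, 6.74 for iG+A, 6.40 for iP+A and 8.49 for iGPA. The genes belong to families with similar copies, and the part of read assignment between copies in these peaks was not tested.

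At the edge of the promoter definition, 471 promoter sites lay in the last 100 bp within 1 kb of a start and were in 2.10 lists on average, and 477 other sites lay in the next 100 bp and were in 2.09.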
